A study of Mus musculus with 6 samples.

Results

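GDC-0449, an inhibitor of the hedgehog signal transducer Smoothened, was compared with its solvent DMSO in SmoWT-MB cells, a mouse medulloblastoma line that the labels describe as Ptch-deficient. The arrays with GDC-0449 in their title were set against those with DMSO in their title, which took 4 of the 6 arrays of the series, 2 for each group, all from cells treated for 6 h. The remaining 2 arrays came from the same line after 6 h with JQ1, an inhibitor of BET bromodomain proteins, and entered the model for its estimate of the spread. The Ptch-deficient background was thus shared by the treated and the control cells. The labels name 1 line and give no concentrations. Nothing in them states that arrays of a group were separate cultures, and the p-values here therefore cover only the variation among these arrays, possibly technical. The platform was Illumina mouse bead arrays, and the response is described here across 12052 genes, represented by the 17026 of 45281 probes that were above background (detection p under 0.01) on at least 2 arrays.

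In hedgehog signalling the receptor Patched holds Smoothened inactive until a ligand binds, and loss of Patched leaves Smoothened active without ligand. Active Smoothened works in the primary cilium and turns the Gli transcription factors into activators, whose targets include the feedback genes Ptch1 and Hhip and the cell cycle genes Ccnd1, Ccnd2 and Mycn. In the developing cerebellum this pathway drives the division of granule neuron precursors, the cells from which hedgehog-driven medulloblastoma can arise.

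The 4 arrays were close to each other, with r = 0.996 across genes within each group and 0.986 to 0.988 between the groups. They had between 16154 and 16466 probes above background. Mean signal before normalization was 408 and 344 with DMSO against 305 and 306 with GDC-0449, and values below are log2 intensities after quantile normalization, so a change is a change relative to the other genes on the array. Probe levels of different genes were set against each other only to group or rank genes by brightness, and were added up only for marker lists. Of 12 granule lineage markers 8 were above background on all 4 arrays, among them Barhl1, Zic1, En2 and Meis1, while the defining markers Atoh1, Pax6 and Nhlh1 were above background on none. None of 10 microglial markers was above background on all 4 arrays. In the endothelial list this held for Egfl7 alone and in the fibroblast list for Thy1 alone, with Pecam1, Cdh5, Col1a1 and Dcn among those above background on none. Of the astrocyte markers Slc1a3, Slc1a2, Aldoc and Sox9 were detected on every array and Gfap and Aqp4 on none, and of the oligodendrocyte markers Mbp, Cnp and Pdgfra on every array and Olig1, Olig2 and Sox10 on none. The summed linear level of the astrocyte list was 6320 and 6670 with DMSO against 5800 and 6290 with GDC-0449, and that of the oligodendrocyte list was 772 and 719 against 631 and 635. Egfl7, listed as an endothelial marker, fell by 0.50 on the log2 scale (9.80 and 9.84 against 9.23 and 9.42). The endothelial list summed to 1130 and 1160 with DMSO against 840 and 925 with GDC-0449. The other endothelial markers lay at or near background, so this sum mostly repeats the change of Egfl7, which alone does not identify endothelial cells here. In such bulk RNA, fewer cells of a type and less RNA per cell cannot be told apart.

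The response to GDC-0449 was broad and mostly small. At a limma adjusted p under 0.05, 1041 genes rose (8.64% of those tested) and 1157 fell (9.60%), together 18.2%. Of these, 1523 changed by less than 1.5-fold, 562 by 1.5-fold to under 2-fold and 113 by at least 2-fold. The median absolute log2 change was 0.49 among called genes and 0.17 among all genes, and the median change of all genes was 0.01. The smallest change called was 0.30, against a median standard error (SE) of 0.11. Genes in the top quartile of DMSO levels rose in 5.48% of cases, and those in the lower 3 quartiles in 9.39% to 10.1%. For 61.7% of all tested genes both GDC-0449 arrays lay on 1 side of both DMSO arrays. A switch between undetected and detected was rare, with 81 called genes above background on both DMSO and no GDC-0449 array and 53 the other way. Where a called gene had several tested probes, 588 of 663 had every probe changed in the same direction (88.7%), compared with 60.7% of uncalled genes, and 4 genes had probes called in opposite directions.

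How many genes pass, and the balance of rises and falls, depended on the arrays used, the normalization and the filter on dim probes. Without DMSO array 1 the counts were 336 up and 408 down, without DMSO array 2 473 and 516, without GDC-0449 array 1 433 and 560, and without GDC-0449 array 2 492 and 641. With median scaling in place of quantile normalization the median of all genes moved to -0.21, and 356 genes rose and 3232 fell. With arrays median-scaled and then centred on the tested genes, an alternative added after seeing the data, 1312 rose and 1202 fell. Without the filter, which brought the genes tested to 30584, 640 rose and 734 fell, and the rises described below dropped from 17 to 11 among FoxO and PI3K genes, from 14 to 9 among lysosome and autophagy genes and from 10 to 5 among chromatin modifiers.

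**Figure D1:**
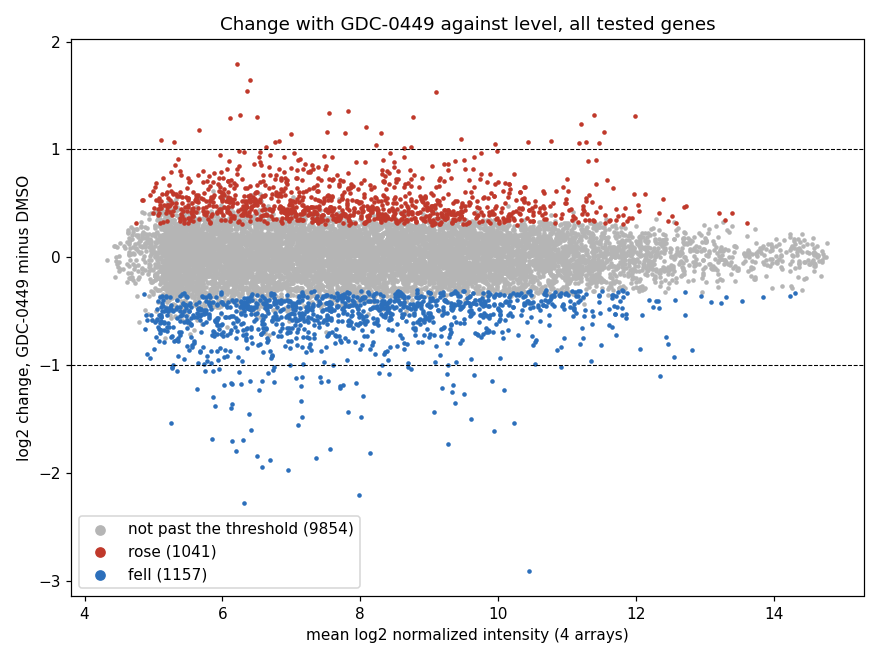
Log2 change with GDC-0449 (y axis) against mean log2 normalized intensity over the 4 arrays (x axis) for the 12052 tested genes, with genes that rose in red, fell in blue and did not pass in grey. Dashed lines mark 2-fold changes; 113 of the 2198 called genes lie on or beyond them, and called genes are spread over all but the lowest levels.

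Among the hedgehog pathway genes, the changes lay in the feedback receptors and in Gli2, while most transducers did not pass. Of 30 tested pathway genes 5 fell and 2 rose (23.3% called, median log2 change -0.08). The ligand group was represented by the release factor gene Disp1 and the acyltransferase gene Hhat, neither past the threshold, and Shh was above background on no array. Of 7 receptor and co-receptor genes 3 fell. Hhip, which encodes a ligand-binding decoy, stood at 7.58 and 7.53 with DMSO and at 5.59 and 5.64 with GDC-0449 (log2 change -1.94, SE 0.09, adjusted p = 4.77e-05). Ptch1 stood at 7.41 and 7.44 against 5.74 and 5.43 (-1.84, SE 0.12, adjusted p = 0.000125). For both genes the groups lay more than 1.5 log2 units apart. Whether the Ptch1 probe reads an intact transcript in this Ptch-deficient line was not tested. The target of the drug itself, Smo, had 9.50 and 9.52 with DMSO and 9.49 and 9.33 with GDC-0449 (log2 change -0.10, adjusted p = 0.589). The co-receptor gene Cdon had a change of 0.38 that missed the threshold (adjusted p = 0.0666), and Boc and Gas1 were above background on no array.

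Among 19 tested transducers and regulators 2 rose and 1 fell (15.8% called, close to the 18.2% of all genes). Stk36, which encodes the kinase Fused, known as a hedgehog transducer in flies and in mice for its part in motile cilia, rose from 6.88 and 6.89 to 8.31 and 8.13 (log2 change 1.34, SE 0.10, adjusted p = 0.000254). Evc2, a ciliary partner of Smoothened, fell by 0.38, and Dyrk2, a kinase that acts on Gli proteins, rose by 0.34. The latter calls were lost without any 1 of the 4 arrays. The negative regulator Sufu (-0.30, adjusted p = 0.199) and the catalytic protein kinase A subunit gene Prkaca (0.31, adjusted p = 0.0824) did not pass. Of the Gli genes, Gli2 fell from 10.86 and 11.01 to 10.18 and 10.12, Gli3 had 8.39 and 8.45 against 8.45 and 8.35 (adjusted p = 0.878), and Gli1 was above background on no array.

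The wider list of hedgehog targets had 18 tested members, of which 10 fell and 1 rose (61.1% called, against 18.2% of all genes), with a median log2 change of -0.46. Without 1 array at a time 8 or 9 fell. The median rests on the 18 of 34 members that passed the filter on dim probes, and it was -0.06, with 9 falls, without that filter and -0.75 under median scaling. Besides the feedback genes and the G1 genes below, those that fell included the survival gene Bcl2 (-0.70), the secreted WNT inhibitor gene Sfrp1 (-0.49) and the ciliary trafficking gene Rab34 (-0.43). Bcl2 stood at 7.15 and 7.03 with DMSO and at 6.29 and 6.50 with GDC-0449. Leaving out either DMSO array or GDC-0449 array 1 ended its call, and those of Sfrp1 and Rab34 without at least 1 array (highest adjusted p 0.119). Hey1, listed here as a target and also a NOTCH effector, was the member that rose (0.68). The remaining 7 tested members, among them Bmi1 (0.27, adjusted p = 0.102) and Foxm1 (0.06, adjusted p = 0.743), did not pass, and Mycn was above background on no array.

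The genes for the primary cilium, the organelle in which Smoothened acts, changed little. Of 47 tested, 3 rose and 0 fell by limma, while 4 were higher and 1 was lower at an unadjusted p under 0.05, and the median log2 change was 0.05 (-0.19 under median scaling, where all genes moved to -0.21). The 3 were Ttc8 of the BBSome (0.58, another probe 0.21) and the intraflagellar transport genes Ift172 (0.39) and Ift74 (0.33, another probe -0.15). Of 5 tested genes for motile cilia, Rfx2, a transcription factor of ciliated cells, rose by 0.53 along with Stk36, and the axonemal dynein gene Dnah11 fell by 0.31. Ccdc114, which encodes a docking protein of axonemal dynein, rose from 5.83 and 5.89 to 7.25 and 7.05.

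**Figure D2:**
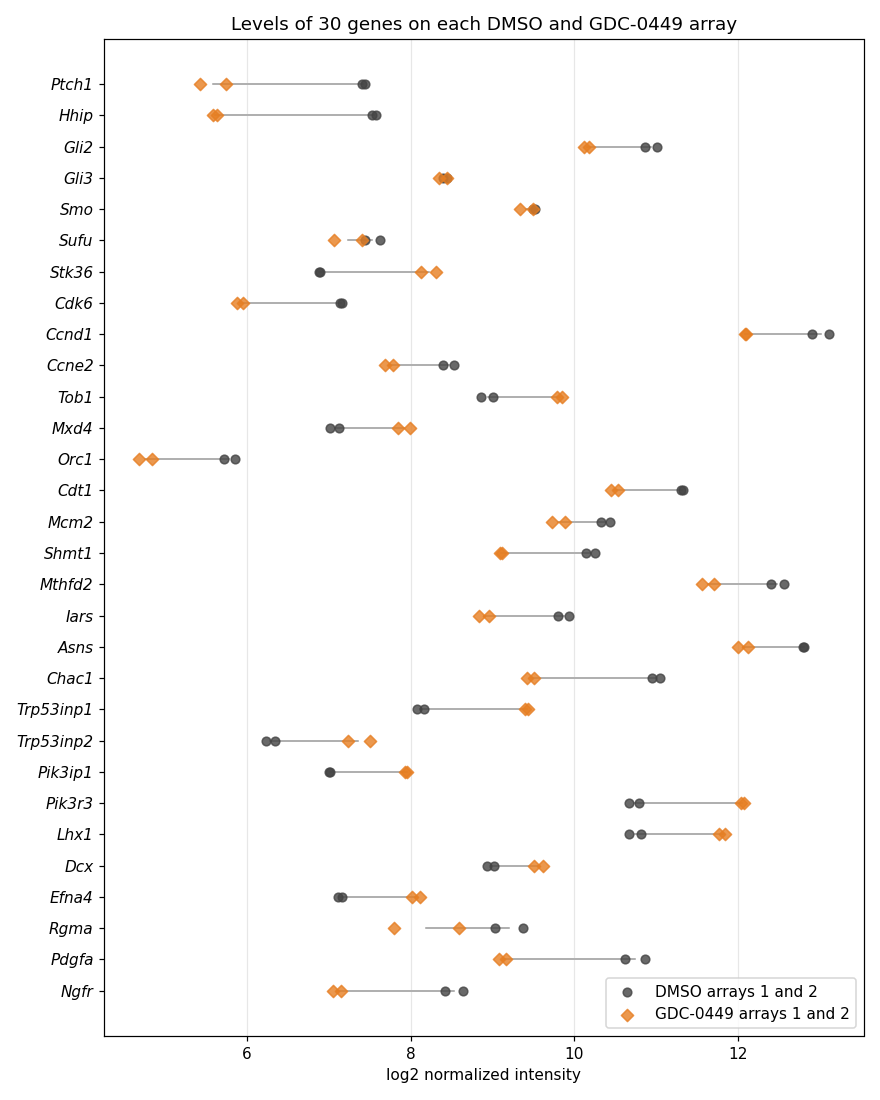
Log2 normalized intensity (x axis) of 30 genes (rows) on the 2 DMSO arrays (grey circles) and the 2 GDC-0449 arrays (orange diamonds); a grey line joins the group means. The groups overlap for Gli3, lie close together for Smo and Sufu and are clearly apart for genes such as Hhip, Stk36, Pik3r3 and Chac1.

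In the cell cycle lists, some G1 cyclin and kinase genes fell and some inhibitor genes rose. Of 9 cyclin and kinase genes 5 fell (median log2 change -0.48), and of 12 inhibitor and pocket protein genes 6 rose and 1 fell (median 0.33). Ccnd1, which encodes the main cyclin D of granule precursors, stood at 13.11 and 12.90 with DMSO and 12.08 and 12.10 with GDC-0449. Its partner kinase gene Cdk6 stood at 7.16 and 7.14 against 5.88 and 5.95. Ccne2, a cyclin of S phase entry, fell from 8.53 and 8.40 to 7.78 and 7.69 (log2 change -0.73, adjusted p = 0.00291). Ccnd2 fell by 0.89 on the log2 scale by its brightest probe, while its other probes gave -1.01 and 0.12. The other members of the same families differed: Ccnd3 had 9.32 and 9.62 against 9.56 and 9.50 (adjusted p = 0.75), Cdk4 had a change of 0.11 (adjusted p = 0.497) and Cdk2 one of -0.16 (adjusted p = 0.384). Cdc25a, the phosphatase that activates Cdk2, fell by 0.48, but another probe gave 0.30 and the call was lost without any 1 of the 4 arrays.

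Tob1, an antiproliferative gene, rose from 9.01 and 8.86 to 9.79 and 9.85 (log2 change 0.89, adjusted p = 0.00118). Btg1, of the same family, rose from 10.50 and 10.56 to 11.11 and 11.19 (0.62, adjusted p = 0.00373). These increases held without any 1 array. Cdkn2a (0.54), Cdkn1c (0.42), Cdkn2c (0.41, another probe 0.13) and the atypical cyclin Ccng2 (0.72) rose as well, with calls that were lost without some arrays (highest adjusted p 0.187). Cdkn1b, the p27 gene, had 6.46 and 6.48 against 6.61 and 6.62 (adjusted p = 0.289). Cdkn1a, the p21 gene, fell by 0.52. Without 1 array at a time between 2 and 4 genes of the joint list rose and between 4 and 6 fell. In the MAX network, whose members compete with Myc for their common partner, Mxd4, a repressor that opposes Myc, rose from 7.01 and 7.12 to 7.99 and 7.84, and Mycl, a Myc relative, rose from 10.98 and 10.95 to 11.89 and 11.84. Mxd3 (0.32, adjusted p = 0.0665) and Mxi1 (-0.30, adjusted p = 0.229) did not pass, and Myc was above background on 1 array.

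DNA replication genes fell or did not pass. Of 47 tested, 24 fell (51.1%, against 9.60% of all genes) and 0 rose by limma, with 34 lower and 2 higher at an unadjusted p under 0.05, and the median log2 change was -0.33. In the licensing and firing group, which loads and starts the replicative helicase, 13 of 23 fell. Orc1, of the origin recognition complex, had 5.72 and 5.85 with DMSO and was above background on neither GDC-0449 array (4.68 and 4.84), a fall of at least 1.47-fold. Cdc6 and Cdt1, which load the helicase on origins, fell from 8.72 and 8.89 to 7.78 and 8.07 and from 11.33 and 11.30 to 10.45 and 10.53. The 6 helicase subunit genes all fell, by 0.61 (Mcm3), 0.58 (Mcm2), 0.56 (Mcm4), 0.53 (Mcm7), 0.49 (Mcm6) and 0.46 (Mcm5). Of these, Mcm2 kept its call without any 1 array, and the others lost it without 1 to 3 arrays (highest adjusted p 0.113).

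At the fork, 11 of 24 genes fell. They included Pole2, a subunit of the leading strand polymerase (-0.65), the histone chaperone subunit Chaf1b (-0.86), the primase partner Pola2 (-0.53) and the clamp loader subunit Rfc3 (-0.48). Pcna, the sliding clamp, had 7.12 and 6.82 with DMSO against 5.73 and 6.80 with GDC-0449. Its GDC-0449 arrays differed by more than the groups did, and it did not pass (-0.70, adjusted p = 0.121). The count of replication genes that fell was 8 without DMSO array 1, 17 without DMSO array 2, 13 without GDC-0449 array 1 and 16 without GDC-0449 array 2, while the calls of Orc1, Cdc6, Cdt1, Pole2 and Chaf1b held in each case.

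The promoters of the replication genes were read for the letters TTTNGCGC or GCGCNAAA, a core form of the binding site of E2F factors. A RefSeq promoter of 300 bases (250 before and 50 after the annotated start, GRCm38.p6) was matched for 7528 of the tested genes and for 39 of the replication genes. The motif was present in 8 of the 39, and these 8 were all among the 20 of them that were called. It was present in 2.68% of the promoters of tested genes and in 1.38% of all promoters. Both strands were searched, and matches of different motifs were counted separately even where they shared letters. A match describes these letters only. A core GLI motif, GACCACCCA or TGGGTGGTC, was searched in the same way and was present in 0 of 23 hedgehog pathway promoters, 0 of 10 hedgehog target promoters, 0 of 27 granule lineage promoters and 0.239% of those of tested genes, which says only that the letters are not in these windows. Windows of 120 bases around the match are shown for the 4 called replication genes with a match that fell most. They lie at chr4:108579371-108579490 on the plus strand for Orc1, chr8:122567945-122568064 on the plus strand for Cdt1, chr12:69228141-69228260 on the minus strand for Pole2 and chr1:20820263-20820382 on the minus strand for Mcm3. Each is RefSeq sequence written 5′ to 3′ on the gene's strand, with the motif in capitals.
Orc1: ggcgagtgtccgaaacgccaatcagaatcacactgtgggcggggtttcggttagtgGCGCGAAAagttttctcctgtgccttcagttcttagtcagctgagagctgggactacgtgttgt
Cdt1: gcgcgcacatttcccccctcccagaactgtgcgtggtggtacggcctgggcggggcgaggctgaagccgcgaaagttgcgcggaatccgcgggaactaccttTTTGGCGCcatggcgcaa
Pole2: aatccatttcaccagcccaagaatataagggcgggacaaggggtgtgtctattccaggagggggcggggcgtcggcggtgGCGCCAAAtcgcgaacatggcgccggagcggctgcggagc
Mcm3: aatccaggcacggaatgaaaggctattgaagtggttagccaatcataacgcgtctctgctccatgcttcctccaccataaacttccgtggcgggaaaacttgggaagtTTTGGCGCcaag

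Some of the genes that supply the fork with nucleotides fell as well, while others did not pass. Of 23 tested genes for nucleotide synthesis 10 fell and 0 rose by limma (17 lower and 0 higher at an unadjusted p under 0.05), with a median log2 change of -0.36. Ppat, the first enzyme of purine synthesis, fell from 8.87 and 9.09 to 8.13 and 8.32, and Prps2, which makes its substrate, from 7.65 and 7.50 to 6.83 and 6.94. Dctd and Dut, which lead to the precursor of dTMP, fell by 0.79 and 0.61. Tyms (-0.28, adjusted p = 0.0679) and Rrm2 (-0.14, adjusted p = 0.484), which are classical S phase genes, did not pass. Of 12 genes for serine and folate metabolism 6 fell and 1 rose (median -0.37). Shmt1, the cytosolic serine hydroxymethyltransferase, fell from 10.14 and 10.25 to 9.09 and 9.12 (log2 change -1.09, SE 0.09, adjusted p = 0.000342). Its mitochondrial counterpart Shmt2 and the mitochondrial folate enzyme Mthfd2 fell by 0.61 and 0.85. The serine synthesis genes Phgdh (-0.16, adjusted p = 0.404) and Psat1 (-0.12, adjusted p = 0.455) did not pass, and Cbs, which opens the way from homocysteine to cysteine, rose by 0.50, a call lost without 3 of the arrays. Without 1 array at a time 8 or 9 of the 16 falls in the joint list were left.

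Mitosis and DNA repair genes moved less than the replication genes. Of 36 tested mitosis genes 3 rose and 2 fell (13.9% called), with a median log2 change of 0.12 (-0.16 under median scaling). Cdc25c, the phosphatase that starts mitosis, rose by 0.48, the condensin gene Ncapd2 by 0.48 and the kinetochore gene Ndc80 by 0.30. The kinetochore gene Cenpk fell by 0.86 and the condensin gene Ncapg by 0.40. Each of these 5 calls was lost without at least 1 array, and without DMSO array 1 no mitosis gene was called. Of 45 tested DNA repair genes 6 fell and 2 rose (17.8% called, close to the share of all genes). Their median log2 change was -0.20, with 36 negative and 9 positive, and 18 were lower and 4 higher at an unadjusted p under 0.05. The mismatch recognition gene Msh6 fell from 11.49 and 11.59 to 10.85 and 10.94, the Fanconi anaemia gene Fanca by 0.63 and the replication checkpoint kinase gene Chek1 by 0.71, whose call was lost without DMSO array 1 or GDC-0449 array 1. Between 2 and 4 repair genes fell without 1 array at a time.

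Most nucleolar genes for making ribosomes fell, while all but 1 of the ribosomal protein genes did not pass. Of 40 tested nucleolar processing genes 28 fell and 1 rose (72.5% called, median log2 change -0.45). Bop1, needed to mature the large subunit, fell from 9.0 and 9.06 to 8.13 and 8.34 (log2 change -0.79, adjusted p = 0.00219). Pa2g4, a growth-regulated nucleolar protein gene, fell from 10.68 and 10.62 to 9.85 and 10.01, and Rrp1b, a nucleolar scaffold, from 10.24 and 10.13 to 9.48 and 9.54 with other probes at -0.53 and -0.23. The 3 kept their calls without any 1 array. The nucleolin gene Ncl and the box C/D core genes Nop56 and Nop58 fell by 0.53, 0.49 and 0.54, with calls lost without some arrays (highest adjusted p 0.0728). Of 17 genes for RNA polymerases I and III 4 fell, among them Polr1b (-0.57), the initiation factor Rrn3 (-0.54) and Polr1a (-0.41). In the joint list 32 genes fell with all arrays, and 6 without DMSO array 1, 15 without DMSO array 2, 18 without GDC-0449 array 1 and 19 without GDC-0449 array 2. The E-box CACGTG, which Myc and its relatives bind, was present in 10 of 50 promoters of the joint list and in 10.3% of those of tested genes.

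The cytosolic ribosomal protein genes had a median log2 change of 0.02 over 46 tested members (-0.20 under median scaling, where all genes moved to -0.21). Rps18 was the member that fell (7.42 and 7.22 against 6.03 and 6.31, log2 change -1.15) and none rose, with 2 lower and 0 higher at an unadjusted p under 0.05. Ribosomal protein genes have near-identical copies, so which copy a probe reports is uncertain. Of 42 translation factor genes 7 fell and 1 rose (19.0% called, close to the 18.2% of all genes). Their median log2 change was -0.09, with 29 negative and 13 positive, and 13 were lower and 1 higher at an unadjusted p under 0.05. Eif4ebp1, an inhibitor of cap-dependent translation, fell from 11.84 and 11.80 to 10.95 and 10.78 (-0.96, adjusted p = 0.00389). The initiation factor subunit Eif2s2 fell by 0.54, and the elongation factor Eef2 rose by 0.39, a call lost without any 1 of the 4 arrays.

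The cytosolic aminoacyl-tRNA synthetase genes, which charge tRNAs, fell in 12 of 22 cases with 0 rising by limma (14 lower and 0 higher at an unadjusted p under 0.05), and their median log2 change was -0.43. The isoleucine enzyme gene Iars fell from 9.94 and 9.80 to 8.84 and 8.96 (-0.97, adjusted p = 0.000829). The asparagine enzyme gene Nars fell from 10.45 and 10.35 to 9.69 and 9.72. Mars1 fell by 0.55, and Cars, which was above background on neither GDC-0449 array, fell at least 1.16-fold. Iars, Nars and Mars1 kept their calls without any 1 array. Cars met the filter on dim probes through the DMSO arrays alone and was not tested without either of them. Without that filter its call was lost. Tars (-0.88, another probe -0.31), Lars (-0.53), Aars (-0.52) and Eprs (-0.48) lost theirs without 2 or 3 arrays, and the brightest of the family, Gars, fell by 0.40 with another probe at 0.06. The count was 4 without DMSO array 1 and 5 to 7 without 1 of the others.

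Mitochondrial genes differed by function. Of 20 tested import genes 7 fell (35.0%, median log2 change -0.30), led by the small carrier chaperones Timm8a1, from 11.03 and 10.83 to 10.13 and 10.21, and Timm10, from 9.04 and 8.83 to 8.27 and 8.15. The matrix chaperone genes Hspd1 and Hspa9 fell by 0.46 and 0.42. Of 66 mitochondrial ribosome genes 6 fell (9.09%, against 9.60% of all genes), although 49 had a negative sign, and of 61 genes for oxidative phosphorylation 1 fell, the cytochrome c gene Cycs (-0.36, other probes -0.47 and -0.02). The median of the oxidative phosphorylation genes was -0.02, and the joint count of falls for import and ribosome genes, 13, was 2 to 6 without 1 array at a time.

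**Figure D3:**
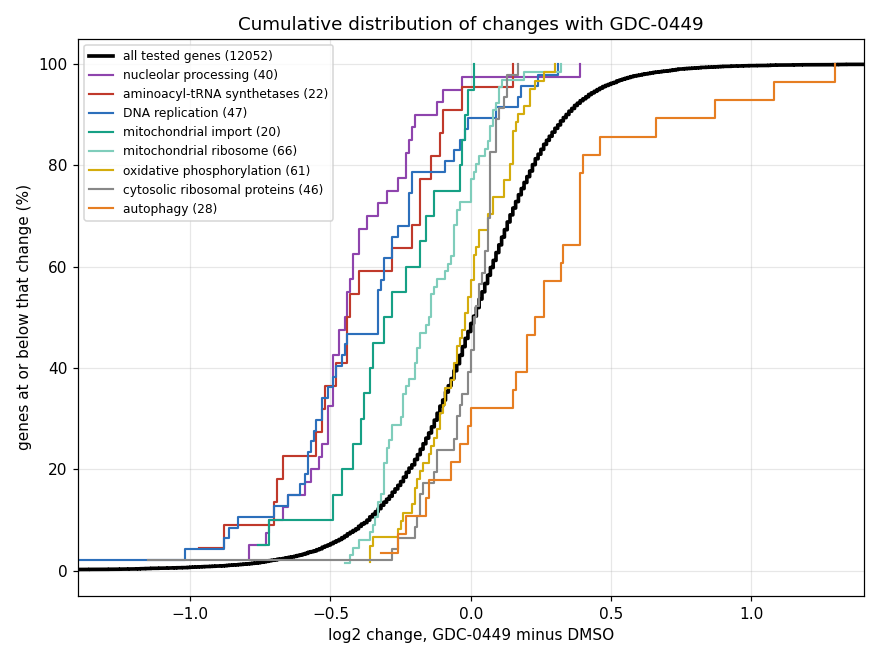
Cumulative percent of genes (y axis) at or below a given log2 change with GDC-0449 (x axis, cropped). Curves are for all 12052 tested genes and for the gene lists named in the key, with the number tested in brackets. The nucleolar, synthetase and replication curves lie to the left of all genes, the ribosomal protein and oxidative phosphorylation curves rise steeply near 0, and the autophagy curve lies to the right.

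Many genes that cells turn on when amino acids are short, through the transcription factor Atf4, fell with GDC-0449. Of 35 tested members of the amino acid response and endoplasmic reticulum stress list 20 fell and 4 rose (68.6% called), with a median log2 change of -0.47. Atf4 itself fell from 12.04 and 12.09 to 11.30 and 11.40 (-0.72, SE 0.09, adjusted p = 0.00202). Chac1, a glutathione-degrading enzyme, fell from 11.05 and 10.95 to 9.42 and 9.51. Trib3, a pseudokinase that restrains the response, fell from 10.06 and 10.03 to 8.66 and 8.73. Nupr1, a stress-induced chromatin protein gene, fell from 9.85 and 9.74 to 8.69 and 8.73, and Cebpb, a partner of Atf4, from 9.11 and 9.33 to 8.36 and 8.51. In each of these the 2 groups lay well apart, and the calls held without any 1 array.

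Several amino acid transporter genes in the list fell. Slc7a3, which carries arginine and lysine, fell from 10.88 and 10.96 to 10.15 and 10.06, and Slc1a4, which carries alanine and serine, from 9.55 and 9.59 to 8.67 and 8.52. Slc1a5, a glutamine transporter gene, fell by 0.77, and Slc3a2, the shared heavy chain of several transporters, was above background on neither GDC-0449 array and fell at least 1.14-fold. Slc1a5 lost its call without DMSO array 1, and Slc3a2 lost its call without GDC-0449 array 1 and was not tested without a DMSO array. The cystine transporter gene Slc7a11 was at least 2.76-fold lower as read by the brightest of its probes, but another gave -0.16. When either DMSO array was left out, the brightest probe no longer met the filter on dim probes. The gene was then represented by another probe, which did not pass. Among the enzymes, the alanine aminotransferase gene Gpt2 fell from 10.48 and 10.47 to 9.26 and 9.40 and the asparagine synthetase gene Asns by 0.74 on the log2 scale. The proline enzyme gene Aldh18a1 (-0.69) and the cystathionine lyase gene Cth (-0.79) fell too. Among the members that rose, Calr (0.52), Pdia4 (0.37) and Creld2 (0.35) help proteins fold in the endoplasmic reticulum, with calls lost without 3 or 4 arrays. Ddit4, an inhibitor of mTOR complex 1, rose from 10.97 and 10.89 to 12.01 and 11.96, against the direction of most of the list. Without 1 array at a time 14 to 19 members fell.

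The promoters of this list were read for TGATGNAA or TTNCATCA, a form of the composite site that Atf4 binds with a C/EBP partner. The letters were present in 9 of 32 promoters read, 7 of them among the 21 of called genes, and in 5 of 15 promoters of the synthetases. They were present in 2.03% of the promoters of tested genes and in 4.06% of all promoters. Windows are shown for the 4 called genes of both lists with a match that fell most. They lie at chr3:50443607-50443726 on the minus strand for Slc7a11, which holds 2 matches, and chr2:119350993-119351112 on the plus strand for Chac1. The windows of Trib3 and Nupr1 lie at chr2:152344011-152344130 and chr7:126625517-126625636, both on the minus strand. They are RefSeq sequence of GRCm38.p6, 5′ to 3′ on the gene's strand, with the motif in capitals.
Slc7a11: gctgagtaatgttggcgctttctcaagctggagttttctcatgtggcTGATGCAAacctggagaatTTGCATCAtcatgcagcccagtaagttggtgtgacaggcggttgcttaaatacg
Chac1: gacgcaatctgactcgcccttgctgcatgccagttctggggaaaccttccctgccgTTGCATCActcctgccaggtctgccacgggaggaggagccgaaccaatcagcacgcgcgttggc
Trib3: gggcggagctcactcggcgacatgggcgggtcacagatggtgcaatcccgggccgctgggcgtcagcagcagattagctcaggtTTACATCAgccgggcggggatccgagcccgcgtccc
Nupr1: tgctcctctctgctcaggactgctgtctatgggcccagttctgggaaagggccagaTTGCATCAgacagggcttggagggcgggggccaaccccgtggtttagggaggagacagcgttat

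Several housekeeping and metabolic functions showed few calls. In glycolysis 1 of 21 tested genes fell, the phosphofructokinase gene Pfkp (-0.40, another probe 0.11), and in cholesterol and fatty acid synthesis 1 of 35 rose, the farnesyl diphosphate synthase gene Fdps (0.37). Sqle, a regulated enzyme of cholesterol synthesis, did not pass (0.18, adjusted p = 0.235). Of 30 proteasome genes 0 were called by limma, with 2 lower and 0 higher at an unadjusted p under 0.05. Of 34 genes for RNA polymerase II and Mediator 1 fell (Polr2h, -0.45, another probe -0.02), and of 45 splicing genes 2 rose, led by U2af1 (0.56), and 2 fell. By contrast 9 of 37 nuclear transport genes fell (24.3%), among them the importin Kpnb1 (-0.47) and the tRNA exporter Xpot, from 12.33 and 12.36 to 11.76 and 11.87, and this count was 2 to 5 without 1 array at a time. In polyamine synthesis Srm, the spermidine synthase gene, fell from 11.17 and 10.89 to 10.12 and 9.95, while Odc1, the first enzyme of the pathway, had 12.46 and 12.26 against 12.11 and 12.20 (adjusted p = 0.219). Of 14 common reference genes Tfrc, the transferrin receptor gene, fell (-0.47), a call lost without any 1 of the 4 arrays.

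Some of the genes linked to FoxO factors and to autophagy rose, while many others did not pass. FoxO factors are held out of the nucleus by PI3K and Akt signalling and turn on genes for arrest, stress resistance and the recycling of cell contents. Of 26 tested genes in the FoxO and quiescence group 13 rose and 3 fell (61.5% called), with a median log2 change of 0.33. Trp53inp1, a stress gene that also acts in autophagy, rose from 8.08 and 8.16 to 9.40 and 9.43 (1.30, SE 0.10, adjusted p = 0.000286). Pik3ip1, an inhibitor of PI3K, rose from 7.02 and 7.0 to 7.93 and 7.96. Sesn1, a stress-induced inhibitor of mTOR complex 1, rose by 0.62, and the ubiquitin ligase gene Fbxo32, a classical FoxO target in muscle, by 0.72, a call lost without any 1 of the 4 arrays. Foxo1 (-0.25, adjusted p = 0.171), Foxo3 (0.04, adjusted p = 0.774), Irs2 (0.13, adjusted p = 0.422) and Igf1r (0.09, adjusted p = 0.583) did not pass. The 3 that fell were Ccnd1, which FoxO factors repress, Foxo6 (-0.66) and Gadd45b (at least 1.18-fold). Foxo6 lost its call in each of the 3 runs without 1 array in which it was tested, and Gadd45b lost its call without DMSO array 2 or GDC-0449 array 2.

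In the PI3K and mTOR group 4 of 21 genes rose and none fell (19% called, close to the 18.2% of all genes). Of these, 3 were regulatory subunits of PI3K. Pik3r3 rose from 10.67 and 10.79 to 12.03 and 12.07 (1.32, SE 0.10), Pik3r1 from 6.68 and 6.73 to 7.41 and 7.50, and Pik3r2 from 7.40 and 7.23 to 7.89 and 7.85. Each pair of GDC-0449 arrays lay above both DMSO arrays, and the calls held without any 1 array. Sgk1, a kinase downstream of PI3K, rose by 0.80. Over both groups 17 genes rose with all arrays and 11 or 12 without 1, and the joint median of 0.21 became -0.02 under median scaling, 0.19 above the shift of all genes.

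Of 28 tested autophagy genes 10 rose and 0 fell by limma (35.7%, against 8.64% of all genes rising), and at an unadjusted p under 0.05 there were 11 higher and 2 lower, with a median log2 change of 0.24. Trp53inp2, which recruits autophagosome proteins, rose from 6.34 and 6.23 to 7.23 and 7.50 (1.08, adjusted p = 0.001). Tecpr1, which joins autophagosomes to lysosomes, rose from 6.77 and 6.75 to 7.65 and 7.60. The cargo receptor gene Nbr1 rose from 7.17 and 7.27 to 7.81 and 7.95. These, with Trp53inp1, kept their calls without any 1 array. The receptors Sqstm1 and Optn and the initiation genes Ulk1 and Atg13 rose by 0.39 to 0.40, each lost without any 1 of the 4 arrays. In the lysosome group 4 of 36 rose (11.1%), among them the peptidase gene Tpp1 (0.43) and the progranulin gene Grn (0.39). Of the 14 genes of both groups that rose, 4 to 6 did so without 1 array, and the joint median was 0.16 (-0.10 under median scaling, 0.11 above the shift of all genes).

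In the insulin-like growth factor axis, Igfbp5, a secreted binding protein gene, rose from 11.46 and 11.21 to 12.59 and 12.70 (1.31, adjusted p = 0.000612). Igfbp2 rose by 0.49 and Igfbp4 fell by 0.39, with calls lost without some arrays. Pappa, a protease that frees the growth factors from binding proteins, was above background on the GDC-0449 arrays alone and rose at least 1.09-fold, a call lost without either DMSO array and not tested without a GDC-0449 array.

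Among receptor tyrosine kinase genes more fell than rose, and most did not pass. Of 19 tested receptor genes 5 fell and 2 rose (36.8% called, median log2 change -0.09). Egfr fell from 10.32 and 10.21 to 9.50 and 9.66, Fgfr2 from 8.14 and 8.15 to 7.38 and 7.41, and Pdgfra, which binds the ligand encoded by Pdgfa, from 6.79 and 6.99 to 6.25 and 6.29. Pdgfa itself fell from 10.86 and 10.62 to 9.08 and 9.17 (-1.61, SE 0.11, adjusted p = 0.000125). All 4 kept their calls without any 1 array, unlike Kit (-0.38), Ror2 (-0.46), Axl (0.41) and Ddr1 (0.36). In the group that is induced by ERK and feeds back on it, the phosphatase genes Dusp7 and Dusp6 fell by 0.83 and 0.39 and Il17rd, which was above background on no DMSO array, rose at least 1.27-fold. Of these Dusp7 kept its call without any 1 array. Ngfr, the low-affinity neurotrophin receptor gene, fell from 8.42 and 8.64 to 7.05 and 7.15.

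In the WNT pathway 5 of 14 ligand and receptor genes fell and 1 rose, and 30% of the whole list of 30 was called, against 18.2% of all genes. The ligand gene Wnt4 (-0.59, another probe -0.14) fell together with 3 genes of secreted inhibitors, Sfrp2 (-0.55), Sfrp1 (-0.49) and Wif1 (-0.40), while the receptor gene Fzd5 rose by 0.40. Each of these calls was lost without at least 1 array, and without DMSO array 1 or DMSO array 2 1 gene of the whole list fell. Among 16 transducers and targets the beta-catenin cofactor genes Bcl9 and Bcl9l rose by 0.61 and 0.53, of which Bcl9l kept its call without any 1 array, and the transcription factor gene Tcf7l2 rose by 0.46. Of 25 tested BMP and TGF-beta genes 4 rose and 3 fell (28% called, against 18.2% of all genes). The receptor gene Tgfbr2 rose from 8.87 and 8.58 to 9.32 and 9.34 while the signal transducer gene Smad3 fell from 9.97 and 10.04 to 9.24 and 9.38. Id2, a BMP target that inhibits differentiation factors, rose from 7.78 and 7.82 to 8.43 and 8.51, and a probe named Idb2, an older symbol of Id2, rose by 1.10. Id1 had a change of -0.47 (adjusted p = 0.058), and Id3 and Id4 were above background on no array.

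The NOTCH pathway had 7 of 24 genes rising and 2 falling (37.5% called, median log2 change 0.18, or -0.08 under median scaling). The ligand gene Dll1 rose from 8.11 and 8.19 to 8.84 and 8.93, and the effector Hey1 from 9.70 and 9.54 to 10.24 and 10.35. The effector Hes5 rose by 0.57 (another probe 0.22), Hes6, which opposes Hes1, by 0.57, the receptor Notch1 by 0.42, and Numbl and Numb, which restrain NOTCH, by 0.49 and 0.40. Hes1 had 7.08 and 7.11 against 6.90 and 7.02 (adjusted p = 0.346). The ubiquitin ligase genes Dtx4 (-0.88, another probe -0.27) and Dtx1 (-0.39) fell. Dll1, Hey1 and Dtx4 kept their calls without any 1 array, and between 2 and 5 of the list rose then.

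Part of the granule neuron lineage list rose. Of 39 tested genes 16 rose and 1 fell (43.6% called, median log2 change 0.32, or 0.04 under median scaling, 0.25 above the shift of all genes), and without 1 array 10 to 12 rose. Lhx1, a homeobox gene, rose from 10.67 and 10.81 to 11.77 and 11.84 (1.07, SE 0.10, adjusted p = 0.000496). Barhl1, a homeobox gene of granule cells, rose from 8.30 and 8.36 to 9.87 and 9.84, and Neurod2, a neuronal differentiation factor gene, from 6.66 and 6.86 to 7.55 and 7.61 with another probe at 0.27. Zic4 rose from 9.23 and 9.21 to 9.82 and 9.85, and Ebf3 from 12.15 and 12.10 to 12.66 and 12.66. These 5 kept their calls without any 1 array. Meis1 (0.45) and Nfix (0.47), which are expressed as granule precursors mature, and the adhesion and synaptic genes Sema6a (0.46) and Cbln1 (0.35) lost theirs without 2 to 4 arrays. Etv1, a transcription factor of maturing granule cells, fell by 0.45, a call lost without DMSO array 2 or GDC-0449 array 2. The summed linear level of the 12 granule lineage markers was 11400 and 11300 with DMSO against 14900 and 15600 with GDC-0449, and the part of a change in cell makeup was not tested.

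Genes for the neuronal cytoskeleton and for axon guidance rose in part. Of 37 cytoskeleton and migration genes 9 rose and 1 fell (27.0% called, median 0.15, or -0.09 under median scaling). Elavl3, a neuronal RNA-binding protein gene, rose from 7.95 and 7.92 to 8.66 and 8.75, and Tubb2b, a tubulin of migrating neurons, from 10.93 and 11.10 to 11.57 and 11.63. Dcx, the doublecortin gene of migrating neurons, rose by 0.59, Map2 by 0.55 and Basp1 by 0.76, calls that were lost without 2 to 4 arrays. Ina, an intermediate filament gene of neurons, fell by 0.42. Between 3 and 5 of the list rose without 1 array. Of 37 axon guidance genes 10 rose and 3 fell (35.1% called, median 0.20, or -0.09 under median scaling), and 4 to 6 rose without 1 array. The rises were mostly in semaphorins and an ephrin: Efna4 from 7.16 and 7.11 to 8.11 and 8.02, Sema3f from 7.28 and 7.19 to 7.95 and 7.97, and Sema7a from 11.16 and 11.01 to 11.84 and 11.68, all held without any 1 array. Sema6d (0.81) and Sema4g (0.74) lost their calls without DMSO array 2. Sema4f fell at least 1.41-fold and was not tested without a DMSO array. Rgma, a repulsive cue gene, had 9.37 and 9.03 with DMSO and 7.80 and 8.59 with GDC-0449 (-1.01, SE 0.23). The GDC-0449 arrays of Rgma lay far apart, and its call was lost without 3 of the 4 arrays.

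Synapse and channel genes moved in both directions. Of 35 synaptic genes 8 rose and 3 fell (31.4% called, median log2 change 0.21, or 0 under median scaling), and 2 or 3 rose without 1 array. The rises were small, among them Nlgn2 (0.50), the vesicular glutamate transporter gene Slc17a6 (0.49) and Syt1 (0.45), and each of them was lost without at least 2 arrays. Cplx2, which controls vesicle fusion, was above background on neither GDC-0449 array and fell at least 1.5-fold. The AMPA receptor subunit gene Gria2 fell from 9.53 and 9.49 to 8.92 and 8.45, a call lost without DMSO array 1. Of 25 ion channel genes 6 rose and 5 fell (44% called, against 18.2% of all genes). The potassium channel genes Kcna2 and Kcnj6 rose from 5.54 and 5.75 to 6.57 and 6.50 and from 5.76 and 5.53 to 6.31 and 6.27. The sodium channel gene Scn1a fell at least 1.46-fold, and the calcium channel subunit gene Cacna2d1 fell from 8.83 and 8.94 to 7.93 and 7.93 with another probe at 0.00. Kcnip3, a calcium-binding channel partner, rose by 0.65, and these channel genes kept their calls without any 1 array, except that Scn1a, like Cplx2, was not tested without a DMSO array.

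Among genes of the matrix and the cell surface 7 of 45 rose and 9 fell (35.6% called). Those that rose included the muscle-type laminin receptor gene Itga7, from 8.26 and 8.08 to 9.09 and 9.11, the aggrecan-degrading protease gene Adamts4, from 6.29 and 6.83 to 7.63 and 7.43, and the cadherin gene Cdh8 (0.58). The falls were of 0.30 to 0.62 on the log2 scale, the laminin gene Lama5 (-0.61) among them, and 1 or 2 of the 9 were left without 1 array. In the actin list 5 of 46 genes rose and 5 fell (21.7% called, close to the 18.2% of all genes). Synpo, an actin-bundling protein gene of dendritic spines, fell from 9.08 and 9.09 to 7.0 and 6.76, Kank1, which links adhesions to microtubules, from 7.54 and 7.72 to 5.81 and 5.69, and Phldb1, which acts at the same sites, from 8.40 and 8.50 to 6.68 and 6.69. The other called members of the list changed by 0.32 to 0.61 in either direction. Rnd2, a small GTPase gene of migrating neurons, rose from 7.98 and 7.83 to 8.73 and 8.71.

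Of 52 chromatin modifier genes 10 rose and 3 fell (25% called, median log2 change 0.14, or -0.13 under median scaling), but 1 rose without DMSO array 1 and 4 or 5 without another array. The demethylase gene Kdm5b rose from 8.10 and 8.23 to 8.80 and 8.92. Eed, a core subunit of the Polycomb methyltransferase, fell from 8.29 and 8.33 to 7.49 and 7.57, and Uhrf1, which maintains DNA methylation after replication, by 0.63. The calls of Kdm5b and Eed held without any 1 array. In the BCL2 family, the death-promoting genes Bbc3 (0.73, another probe 0.13) and Bcl2l11 (0.50) rose while Bid, Bik and Bok, which also promote death, fell by 0.67, 0.61 and 0.44. Bbc3 stood at 8.31 and 8.45 against 9.10 and 9.11, and Bid at 8.40 and 8.30 against 7.64 and 7.73. The call of Bok was lost without any 1 of the 4 arrays, and those of Bik and Bcl2l11 without DMSO array 1. The executioner caspase gene Casp6 rose by 0.74. Mcl1 (-0.26, adjusted p = 0.126) and Bmf (0.41, adjusted p = 0.253) did not pass.

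Smaller lists held single genes with clear changes. Among immediate early genes the AP-1 gene Fosl2 fell from 7.90 and 7.88 to 6.49 and 6.33 and Egr2 from 6.79 and 6.65 to 5.68 and 5.42. Zfp36 rose by 0.60, a call lost without DMSO array 1. Jund rose by 0.47, a call lost without DMSO array 1, DMSO array 2 or GDC-0449 array 2. In the circadian list the repressor gene Bhlhe40 (6.50 and 5.96 against 5.20 and 5.27, above background on 1 GDC-0449 array) and the Clock repressor gene Ciart (7.35 and 7.30 against 6.60 and 6.66) fell, and none of the other 13 tested passed. In the hypoxia list Vegfa fell by 0.58 and Egln3 by 0.59, and Ddit4 rose. The calls of Vegfa and Egln3 were lost without DMSO array 1, and that of Egln3 also without GDC-0449 array 1. In the interferon list 2 of 16 genes rose and 2 fell, and the calls named by rule, Ifit2 (-0.72, another probe -0.13), Psmb10 (-0.46) and Gbp2 (0.43), were each lost without at least 2 arrays. Pde2a, which breaks down cyclic nucleotides, rose from 6.75 and 6.99 to 7.74 and 7.61.

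**Figure D4:**
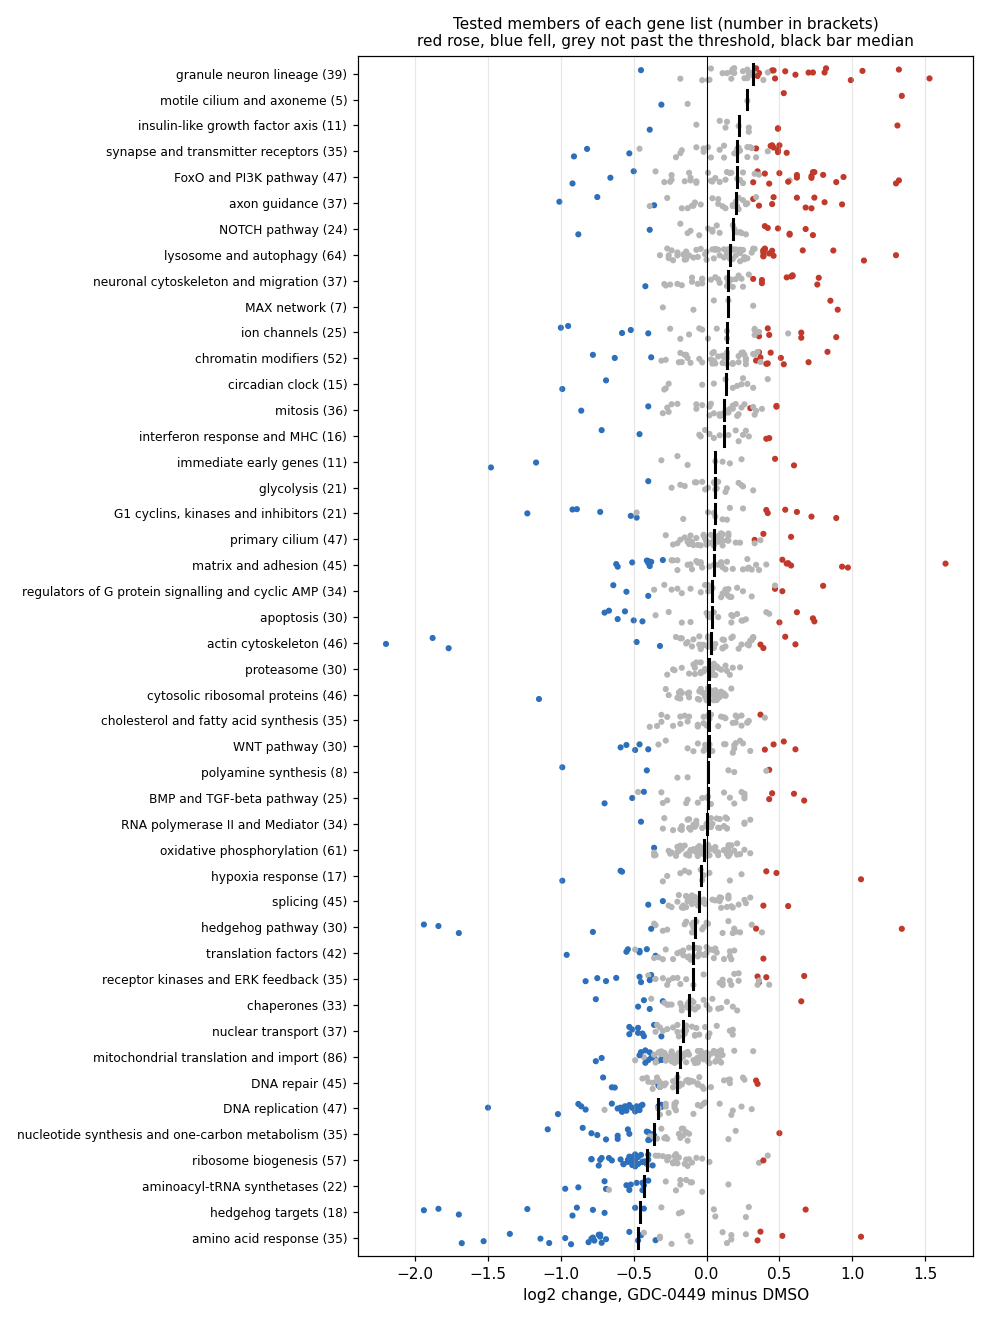
Log2 change with GDC-0449 (x axis) of each tested member of 46 gene lists (rows, number tested in brackets), with members that rose in red, fell in blue and did not pass in grey, and a black bar at the list's median. Lists are ordered by median, from amino acid response (-0.47) at the bottom to granule neuron lineage (0.32) at the top; each list holds members that did not pass.

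Behind the 10 largest rises came Nrn1, a neurite-promoting protein gene, from 10.50 and 10.65 to 11.77 and 11.86 (log2 change 1.24, SE 0.09, adjusted p = 0.000237). The next were Fam110a (1.21), the enzyme gene Cyp11a, Camk2n1, an inhibitor of calmodulin-dependent kinase II (1.16), the calcium pump gene Atp2b2 (1.15, other probes 0.16 to 0.52), Ahnak (1.15), Idb2 (1.10), Neurl1b, Trp53inp2 and Tprn (1.08). Cyp11a was above background on no DMSO array and rose at least 2.06-fold. Its name is an older symbol of Cyp11a1, the first enzyme of steroid synthesis, whose own probe rose from 9.05 and 9.04 to 9.95 and 9.96. Neurl1b, a ubiquitin ligase gene that acts on NOTCH ligands, rose at least 1.36-fold from a level below background. Among these 10 genes every pair of GDC-0449 arrays lay above both DMSO arrays, which the rule for naming them required, and their calls held without any 1 array, except that Cyp11a and Neurl1b were not tested without a GDC-0449 array.

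Behind the 10 largest falls came Prm1, named for a sperm protamine, from 10.15 and 10.14 to 8.35 and 8.48, and Angptl2, a secreted angiopoietin-like factor gene, from 7.19 and 7.11 to 5.42 and 5.50 (-1.69, SE 0.09, adjusted p = 5.52e-05). Slc7a11, Pdgfa, Chac1, the laminin gene Lama3 (at least 1.73-fold), Ung and Fosl2 were also in this group. Ung, which removes uracil from DNA, had 10.28 and 10.45 against 8.90 and 8.82, with other probes at -1.36 and -0.03. Of those named, Lama3 and the brightest probe of Slc7a11 were not tested without a DMSO array, and the others kept their calls without any 1 array.

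Most of the 8 brightest called genes in each direction changed by small amounts, while other bright genes, such as Ccnd1 and Igfbp5 above, changed more. The 8 most highly expressed that rose were Ubg, Zfp36l1, Rtl8a, Arl6ip1, Wbp2, Marcks, Tuba1a and Sox11, by 0.32 to 0.48 on the log2 scale. Each lost its call without at least 2 arrays, and Marcks (0.32) turned to -0.01 under median scaling. The 8 that fell were the histone genes H2ac10, H2af-ps2 and H2ac12, the nucleolar gene Npm1, Gars, the nucleotide kinase gene Nme1, Hspa9 and Lrig3. Histone genes have near-identical copies, so which copy a probe reports is uncertain. Lrig3, a membrane regulator of receptor kinases, fell from 13.30 and 13.19 to 12.35 and 12.42 and kept its call without any 1 array, and the others fell by 0.33 to 0.42 and lost theirs without at least 3 arrays.

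Some of these changes were set against JQ1 by the direct contrast of the treated arrays, in which 54.5% of all genes passed the threshold. Both compounds were compared with the same DMSO arrays, so their changes from DMSO are given side by side. Igfbp5 had a change of 1.31 with GDC-0449 and -2.65 with JQ1 (adjusted p = 7.12e-07 for the difference), Barhl1 1.53 and -0.77 (9.28e-07), and Nrn1 1.24 and -0.87 (1.73e-06). Pdgfa had -1.61 with GDC-0449 and 0.29 with JQ1 (3.84e-06). For Ptch1 (-1.84 and -1.71, adjusted p = 0.391), Gli2 (-0.78 and -0.79, adjusted p = 0.971) and Iars (-0.97 and -1.01, adjusted p = 0.704) the difference did not pass the threshold, which does not show that the compounds act alike on them.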

How the data were processed

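RNA of SmoWT-MB cells was measured on 6 Illumina bead arrays, 2 per group. The deposited table gives a mean bead intensity per probe on a linear scale with its detection p-value, as the file headers name them (the values are as deposited); per the submitters' processing notes it comes from GenomeStudio 1.9.0. The deposited value table of the series, also intensity, was used as an alternative; judged from its values it is linear, background-subtracted and quantile-normalized, with a median of 8.15 in each column, while its exact scale and centring are not stated.

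Background correction and quantile normalization used neqc (limma 3.58.1, R 4.3.3, offset 16), which pulls changes of dim probes towards 0. A probe entered the test when 2 or more of the 6 arrays gave it a detection p under 0.01, with the brightest probe representing a gene. Symbols were checked against the GRCm38.p6 RefSeq table: 27740 probes were current, 6111 were updated, 1926 kept an older symbol and 9504 had no match. One coefficient per group was fitted to all 6 arrays with lmFit and eBayes (3 residual and 5.38 prior degrees of freedom). Tests were two-sided, with Benjamini-Hochberg adjustment over all 12052 genes and a threshold of 0.05. The number of arrays limits the precision, and with 2 arrays per group no search for outlying arrays was made. A fold is given as "at least" where no array of a group was above background, with dim values raised to the lowest detected signal of their array. Some such genes met the filter on dim probes only through the group where they were high.

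Genes named were those ranked 11 to 20 in each direction, the 8 brightest called each way, up to 3 members per list with the smallest p, and some fixed ones; further members were named after their values were seen, and some genes that the rule named are not reported here. The members and lists (54 lists, 2245 genes, 1558 tested) were chosen with earlier results of these data known. The model was tested on simulated data.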

Additional observations from a re-analysis of the deposited data

How the results depend on the processing

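With 1 array left out at a time, JQ1 arrays included, between 336 and 978 genes rose, 408 and 1104 fell and 744 and 2081 were called, against 1041, 1157 and 2198; a group of 1 array is then assumed to vary like the others. The loss of a DMSO or GDC-0449 array left at most 492 rises and 641 falls. Median scaling gave 356, 3232 and 3588, and Marcks turned to -0.01 (adjusted p = 0.981). Without a filter on dim probes, which raised the genes tested to 30584, the counts were 640, 734 and 1374, and the adenosine receptor gene Adora1 turned from -0.64 to 0.01. Fitting the replicate number as a block gave 970 rises and 1098 falls. The difference between replicates 1 and 2 correlated at -0.02 to 0.08 between groups, so the numbers were not taken to pair the arrays. The other settings (no background correction, offset 50, detection on all 6 arrays, mean of probes, symbols as deposited, the 4 arrays alone, series values floored at 16) gave 870 to 1383 rises and 941 to 1469 falls. In each setting at least 99.9% of called genes still tested kept their sign and 0 were called the opposite way.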
